A study of Daucus carota with 10 samples.

Results

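Xylem and phloem of the taproot were sequenced separately in a pair of purple carrot (Daucus carota) cultivars, and the question here was which genes differ between the tissues in one cultivar but not, or not in the same way, in the other. For each gene the xylem-minus-phloem difference of samples E and F was set against that of samples G and H, as (E minus F) minus (G minus H). All 8 libraries of these 4 groups were used, of the 10 in the series. Xylem is E in one cultivar and G in the other, phloem is F and H in the same order, each with 2 libraries, and CT was the whole taproot slice of the orange cultivar ‘H13.360IND’, also with 2 libraries. CT did not enter the comparison and serves only as an outside reference. All plants were grown in a greenhouse and harvested 120 days after sowing, and 10 taproots of a cultivar were mixed into a sample, so that a library is a pool and not a plant. The study describes the 2 libraries of a group as biological replicates, and xylem and phloem were cut from discs of the same cultivar's taproots.

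The sources disagree on which cultivar is which. The sample titles give E and F as ‘Purple Haze’ and G and H as ‘Purple 68’, whereas the study's text gives E and F as ‘Purple 68’ and G and H as ‘Purple Haze’. The colour labels also disagree with the pigment genes: E is labelled as orange xylem and G as purple xylem, while CHS1, the chalcone synthase of the pigment pathway, had 4958 and 7154 FPKM (fragments scaled to the length of the transcript and the size of the library) in E, against 78.9 and 74.8 FPKM in G. The study describes ‘Purple 68’ as purple and ‘Purple Haze’ as purple with an orange core, so that its assignment makes E a purple and G an orange xylem, the order that the CHS1 values have. Because the labels give the reverse, groups are called by their letters. Exchanging the cultivar names would leave every value below as it is.

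Anthocyanins are flavonoid pigments. They are made from phenylalanine, first by enzymes of general phenylpropanoid metabolism, which also feed lignin, and then by chalcone synthase and the flavonoid enzymes after it. Complexes of MYB and bHLH transcription factors switch these genes on, and the finished pigment is carried to the vacuole. Xylem and phloem of a carrot taproot are both storage tissue laid down by a cambium between them, where cell division, auxin and cytokinin are closely tied.

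An interaction was tested for 20081 genes, those that averaged 1 FPKM or more in at least 1 of the 4 groups. Values were taken as log2(FPKM + 1), the test was limma, and called means a Benjamini-Hochberg adjusted p below 0.05. There were 291 called genes, or 1.45% of those tested. The xylem-minus-phloem difference was more positive in E and F for 35 of them (0.174%), which leaves 256 (1.27%) with the opposite sign, more positive in G and H. At an unadjusted p below 0.05 there were 2367 genes (11.8%). The count depended on the setting and lay between 0 and 602 over the alternatives, as given at the end. The sizes of called interactions began at 1.86 and ran to 6.09 on the positive and -7.77 on the negative side of the log2 scale. The median over all genes tested was -0.24, and 66.4% of them were negative, so that the values below are read against a slightly negative centre.

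Most called genes had a large tissue difference in G and H. Among the 291 genes, 145 had a G minus H of at least 1 in size and an E minus F below that, against 10.6% of all genes tested. Another 113 differed between tissues by at least 1 in both cultivars but in opposite directions, a pattern of 1.33% of all genes tested. In 26 genes (8.93%) E minus F alone reached that size, against 7.25% of all genes tested. By the limma test of each tissue difference, G minus H was called in 223 of the 291 genes, where 4.72% of all genes tested were called. E minus F was called in 70 of them, where 2.47% of all genes tested were called. Both tissue differences enter the interaction that selected these genes. Shares above those of all genes tested therefore follow in part from that selection. The scatter of both tissue differences shows how the called genes leave the diagonal.

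**Figure D1:**
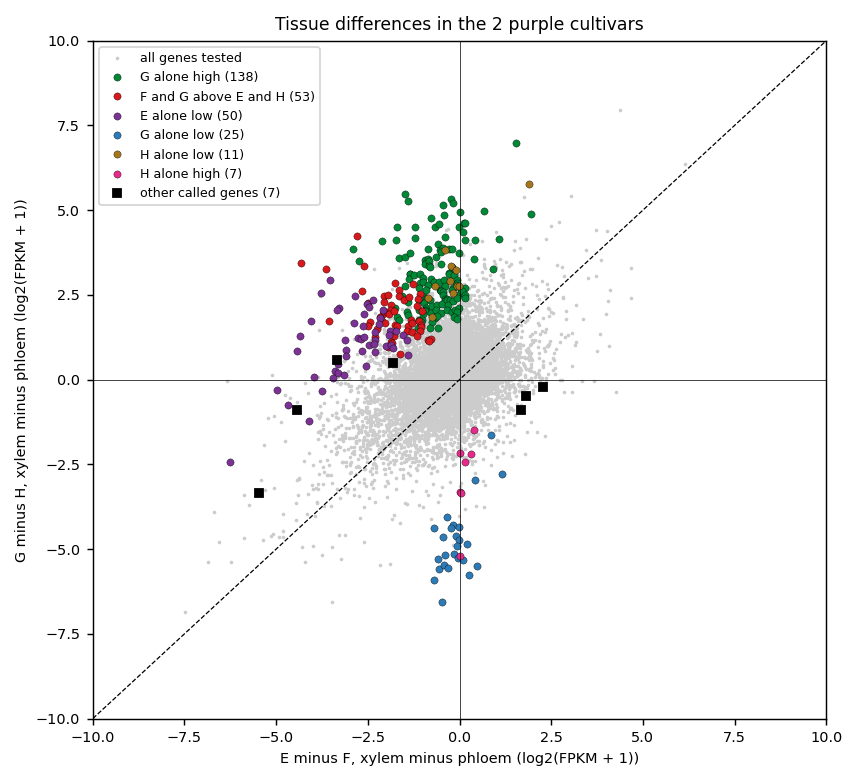
Each point is a gene, with E minus F on the horizontal axis and G minus H on the vertical axis, both on the log2(FPKM + 1) scale, and the dashed line marks equal differences. The 25 genes low in G alone form a group below the centre, with G minus H down to -6.55 and E minus F between -0.71 and 1.17, while the 138 genes high in G alone lie above it.

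Each called gene was given the group that drives it, from the largest gap between its 4 ordered group means. In 138 genes (47.4%) G stood alone above the others, a class that holds 17.1% of all genes tested. These sizes depend on the definition: where a driving group was required to leave the other 3 means close together, 203 called genes had none, and high in G alone held 52 genes, low in E alone 8 and low in G alone 20. In 53 genes (18.2%) F and G stood together above E and H, so that the tissues were reversed between the cultivars, against 3.30% of all genes tested. E stood alone below the others in 50 genes (17.2%, against 8.6% of all genes tested), and G did so in 25 (8.59% against 4.53%). The remaining classes were smaller, each with a lower share of the called than of the tested genes. H alone was low in 11 (3.78% against 12.7%) and high in 7 (2.41% against 5.38%). F alone was high in 3 (1.03% against 7.12%) and low in 2 genes (0.687% against 3.7%). There was 1 gene each (0.344%) with E and H above F and G (0.662% of all genes tested) and with F and H above E and G (4.62%). No called gene had E alone high, although 6.79% of all genes tested did. In each of the 236 called genes with a single driving group, both of its libraries lay outside the range of the other 6, which held for 48.7% of the 13235 tested genes with a single driving group and for 32.1% of all genes tested. These classes describe the values that made the call and were not tested.

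**Figure D2:**
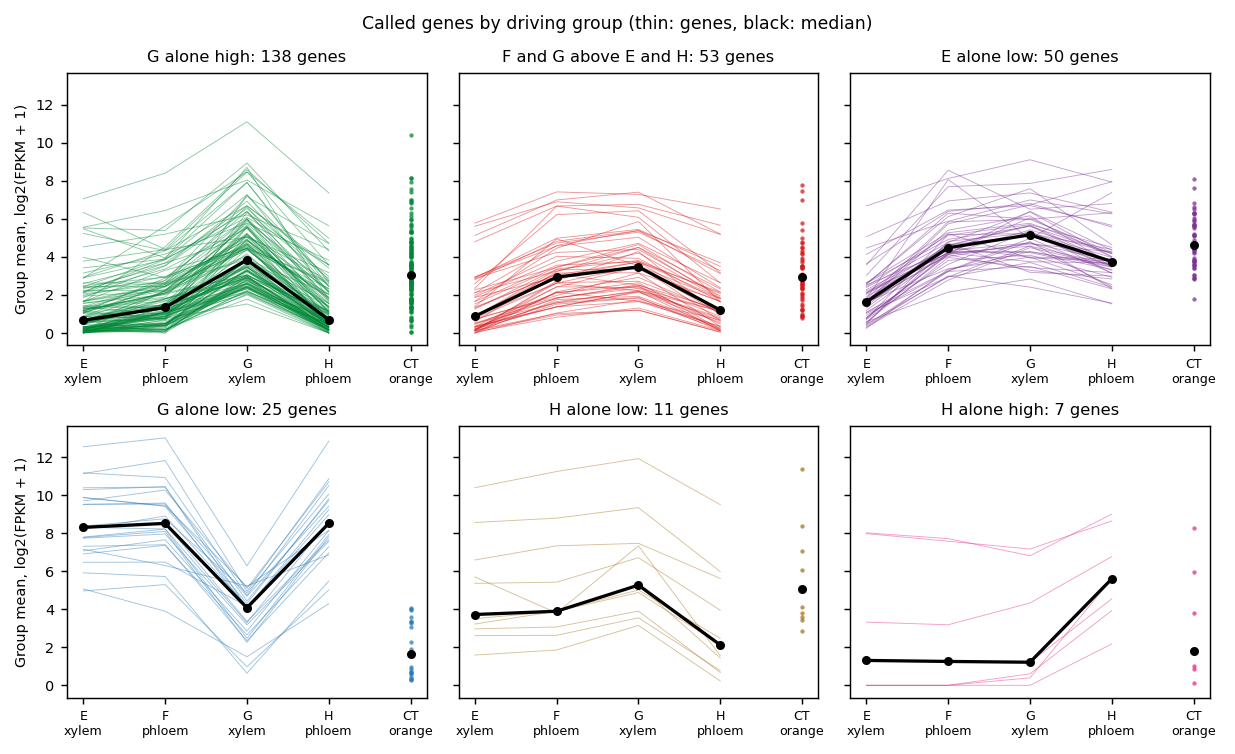
Thin lines join the group means of log2(FPKM + 1) of each called gene in the 6 largest classes, the black line is the class median, and CT is set apart on the right. In the class low in G alone the median is 8.30 in E and 8.51 in F, then 4.07 in G with 8.51 in H, and CT is at 1.63.

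The genes low in G alone were mostly pigment and phenylpropanoid genes, and they carried 25 of the 35 positive calls. The study had placed 19 of the 25 in its own pigment or pathway lists, which it drew up from these libraries, so the overlap is not independent evidence. Those lists held 59 of the 291 called genes and 460 of the 20081 genes tested. CHS1 had 4958 and 7154 FPKM in E, 7591 and 8899 in F, 78.9 and 74.8 in G, and 6252 and 8503 in H. Its interaction was 6.09 ± 0.45 (SE, adjusted p = 0.00536), the largest positive value of the 291 called genes. G alone was low, and the H libraries overlapped those of both E and F. F3H1, the flavanone 3-hydroxylase that acts after the chalcone steps, had 2057 and 2573 FPKM in E, 1804 and 2082 in F, 30.3 and 21.5 in G, and 1233 and 1681 in H, with an interaction of 6.01 ± 0.40 (adjusted p = 0.00536).

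The steps between and after these enzymes had the same shape. CHI1, a chalcone isomerase, had 1488 and 1046 FPKM in E, 1155 and 1667 in F, 19.0 and 13.2 in G, and 644 and 557 in H. CHI2, the other isomerase, had 651 to 1480 FPKM in the libraries of E and F, and 34.1 and 32.6 in G against 1706 and 1602 in H. F3'H1, which adds a hydroxyl group to the B ring, had 149 and 166 FPKM in E, 163 and 171 in F, 5.03 and 3.26 in G, and 90.8 and 168 in H. In all 3 genes both G libraries lay far below the other 6. Their interactions were 5.003 for CHI1, 5.02 for CHI2 and 4.53 for F3'H1, with SEs between 0.42 and 0.46.

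DFR1, the dihydroflavonol reductase, had 935 and 566 FPKM in E, 584 and 999.9 in F, 16.5 and 14.9 in G, and 637 and 393 in H (interaction 4.84 ± 0.54). LDOX1, the dioxygenase that yields the coloured anthocyanidin, had 368 and 296 FPKM in E, 342 and 542 in F, 28.9 and 27.2 in G, and 916 and 1220 in H (interaction 4.80 ± 0.40). LDOX1 was thus higher in H than in E and F, an order that CHI2 shared and that CHI1 and F3H1 did not. LOC108213096, which the study matched to the Arabidopsis flavonoid 3-O-glucosyltransferase AT5G17050, had 894 and 987 FPKM in E, 396 and 1161 in F, 23.4 and 14.9 in G, and 519 and 1518 in H, and its wide phloem replicates gave a larger SE (interaction 5.97 ± 0.88, adjusted p = 0.0314).

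Genes for modifying and moving the pigment followed. DcGST1 belongs to the glutathione S-transferases, of which some carry anthocyanins to the vacuole, and it had 2146 and 2339 FPKM in E, 3268 and 3969 in F, 38.3 and 23.5 in G, and 1525 and 2240 in H. Its interaction was 5.21 ± 0.45 (adjusted p = 0.00782). DcSCPL1 is a serine carboxypeptidase-like gene of a family that includes acyltransferases of plant phenolics. It had 185 and 96.2 FPKM in E, 200 in both F libraries, 6.49 and 5.92 in G, and 286 and 273 in H, an interaction of 4.70 ± 0.43 (adjusted p = 0.00918). Both genes were lowest in G by a wide margin, and H was above E in DcSCPL1.

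**Figure D3:**
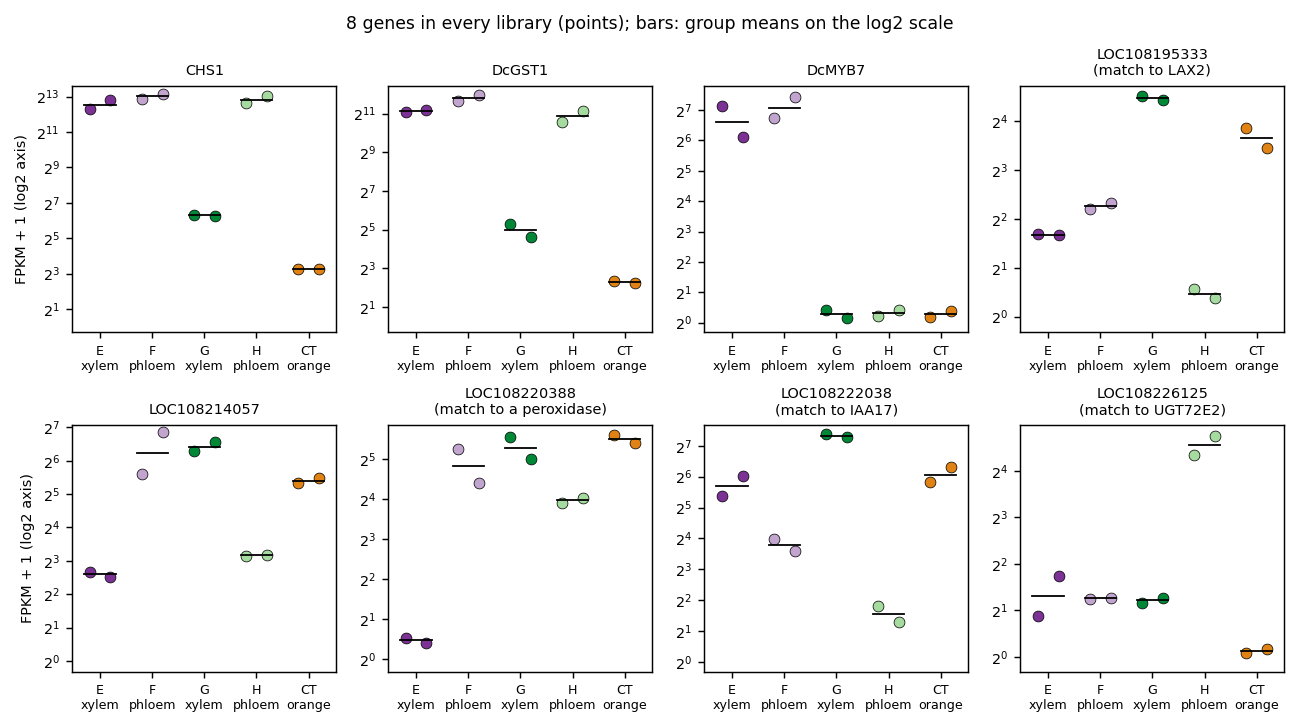
FPKM + 1 on a log2 axis for 8 genes, with 1 point per library and a bar at the group mean on the log2 scale, for E (xylem), F (phloem), G (xylem), H (phloem) and the orange CT. CHS1 and DcGST1 are low in G and CT, DcMYB7 is low in both G and H, and the other 5 genes show G alone high, the crossed pattern, E alone low, H alone low and H alone high.

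Further genes low in G alone were matched to enzymes of phenylpropanoid and monolignol metabolism. Of the 43 genes the study listed under phenylpropanoid biosynthesis, 11 were called, 7 positive and 4 negative, beside 1.45%, 0.174% and 1.27% of all genes tested, and 5 were called with voom on recovered fragments. The study's pathway lists hold genes it had already found different between these groups. Of all 413 tested pathway genes 52 (12.6%) were called, 20 positive and 32 negative. A list count above the share of all genes tested is therefore not independent evidence. The list's median was -0.39, and 25 of its 43 genes were negative. LOC108227809, matched to the cinnamoyl-CoA reductase AT1G15950, had 1586 and 1124 FPKM in E, 1260 and 1490 in F, 22.4 and 18.9 in G, and 742 and 942 in H (interaction 5.24 ± 0.37, adjusted p = 0.00536). LOC108225223, matched to the ferulate 5-hydroxylase AT4G36220, had 5.28 and 3.88 FPKM in G and 146 to 366 FPKM in the libraries of the other 3 groups (interaction 5.04). LOC108210405, matched to the caffeic acid O-methyltransferase AT5G54160, had 38.6 and 15.7 FPKM in G and 475 to 974 in the others (interaction 4.72). These 3 enzymes act on hydroxycinnamates and their CoA esters or aldehydes, which also supply the acyl groups of acylated anthocyanins. LOC108227431, matched to the p-coumaroyl ester 3'-hydroxylase AT2G40890, had 11.6 and 5.50 FPKM in G and 134 to 284 in the other groups (interaction 4.16). The CoA-ester methyltransferase match LOC108207577 (AT4G34050) was less extreme in H, with 904 and 956 FPKM in E, 520 and 915 in F, 38.6 and 32.8 in G, and 254 and 312 in H, and had an interaction of 3.38. LOC108215217, matched to the aldehyde dehydrogenase AT3G24503 of the sinapate branch, had 18.3 and 16.0 FPKM in G and 187 to 581 in the others (interaction 3.66).

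Not all members of the upstream steps passed the test. PAL4, a phenylalanine ammonia-lyase at the entry to the pathway, had 308 and 432 FPKM in E, 182 and 390 in F, 16.0 and 4.83 in G, and 106 and 164 in H, with an interaction of 4.19 ± 0.80 that missed the threshold (adjusted p = 0.0599, and between 0.0418 and 0.24 over 18 alternatives, 2 of which called it). C4H1, the cinnamate 4-hydroxylase after it, had 965 and 992 FPKM in E, 951 and 1344 in F, 167 and 65.3 in G, and 506 and 544 in H (interaction 2.11 ± 0.60, adjusted p = 0.174). The G replicates of both genes lay further apart than those of CHS1, and the interaction of C4H1 was smaller.

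Some genes of this class have no place in pigment synthesis that the sources give. LOC108205905 and LOC108227207, matched to the alcohol dehydrogenase-like genes AT1G32780 and AT5G24760, had interactions of 4.17 and 3.96. LOC108205905 had 132 and 107 FPKM in E, 124 and 216 in F, 5.30 and 5.24 in G, and 157 and 152 in H. LOC108216725, matched to a subunit of mitochondrial complex I (AT5G67590), was called with a smaller interaction of 2.49 and had 38.3 and 34.3 FPKM in G against 101 and 130 in H. LOC108200979 and LOC108227883, for which the tables used here give no function, had interactions of 5.39 and 5.23, with G between 2.95 and 10.8 FPKM and the other libraries between 201 and 439.

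The orange CT taproot lay nearer to G than to the mean of E, F and H in all 25 genes low in G alone. Among all 525 tested genes whose G libraries were both below the other 6, this held for 55.4%. In all 25 genes both CT libraries were below every E, F and H library. G was not at the level of CT, however, since both G libraries were above both CT libraries in 21 of the 25 genes and below them in 2. How often either order against CT held among the 525 genes was not computed, so these counts are not read as traits of the called genes. CHS1 had 78.9 and 74.8 FPKM in G against 8.40 and 8.72 in CT, and F3H1 had 30.3 and 21.5 FPKM in G against 2.58 and 1.66 in CT. In this class the ratio of mean FPKM in H to that in G ran between 3.18 and 96.0, with a median of 37.4. The lowest value in a G library rested on 14 fragments. A lower level of these transcripts in a whole tissue can come from fewer expressing cells or from less RNA per cell, which these libraries cannot tell apart.

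The pigment regulators differed in their pattern. DcMYB7, an MYB of the group that activates anthocyanin genes, had 139 and 68.4 FPKM in E and 105 and 172 in F, against 0.35 and 0.11 in G and 0.17 and 0.34 in H. Its tissue differences were -0.46 ± 0.43 in E and F and -0.03 ± 0.43 in G and H, and its interaction of -0.43 ± 0.61 was not called (adjusted p = 0.952). DcMYB6, its close relative, had 40.1 and 31.5 FPKM in E and 33.8 and 53.2 in F, against 0.06 and 1.46 in G and 0 and 0.06 in H (interaction -0.90 ± 0.69, adjusted p = 0.794). In both genes the E and F libraries overlapped and lay above all G and H libraries, and the values in H, where CHS1 was high, were as low as those in G. DcbHLH3, a basic helix-loop-helix factor of the pigment list, was low in G alone, with 11.9 and 6.55 FPKM in E, 16.4 and 18.8 in F, 0.52 and 0.84 in G, and 19.8 and 11.7 in H. Its interaction of 2.37 ± 0.59 was not called (adjusted p = 0.12), although it was in 3 of 18 alternatives, among them quantile normalization (adjusted p = 0.0408) and an adjustment for gene length (adjusted p = 0.0184). Over the 18 alternatives its adjusted p ran between 0.0184 and 0.34.

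**Figure D4:**
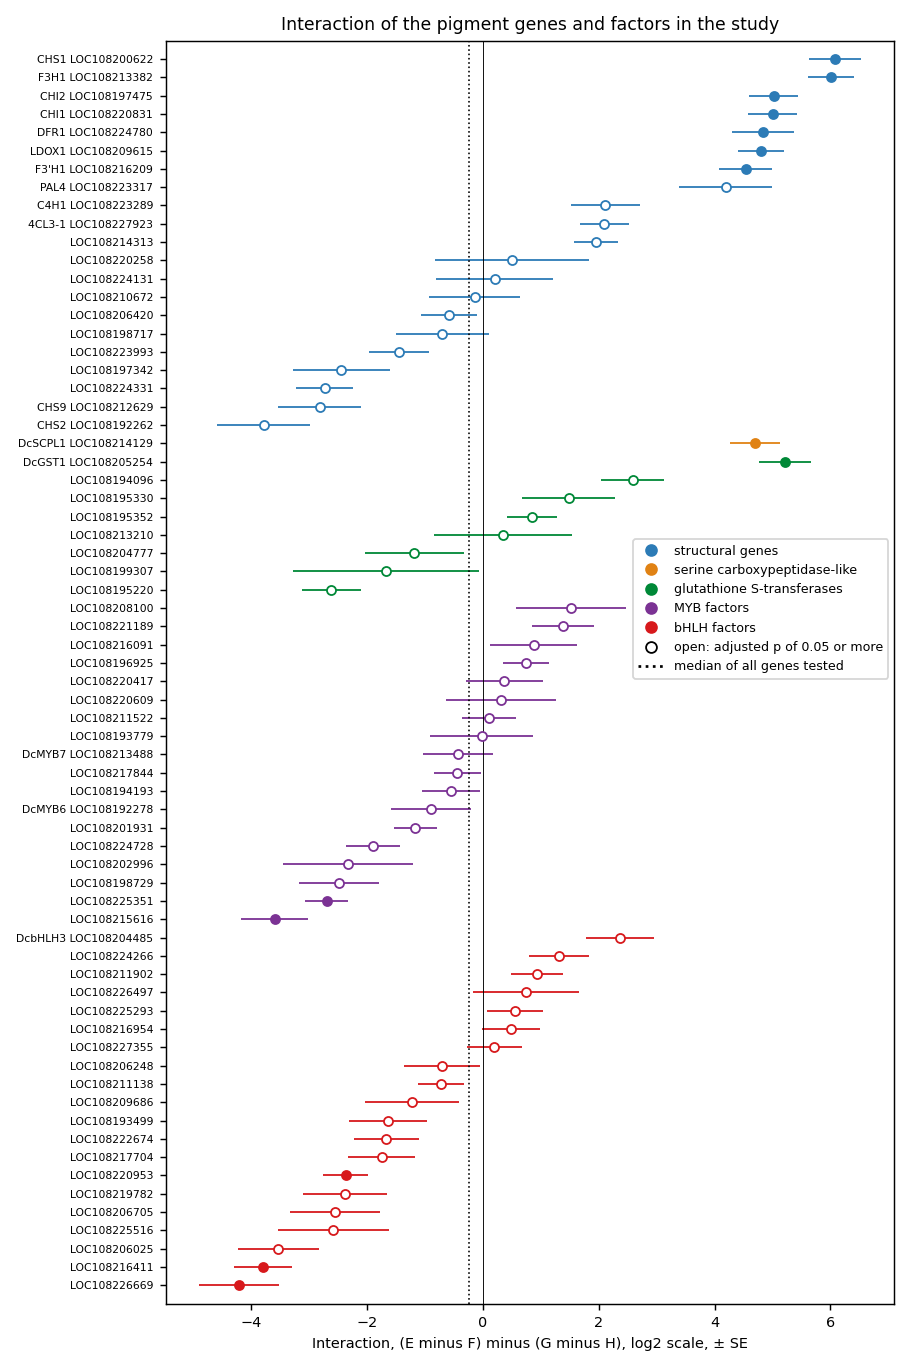
The interaction (log2 scale, bars ± SE) of each structural gene, serine carboxypeptidase-like gene, glutathione S-transferase, MYB and bHLH gene that the study listed, with filled points for adjusted p below 0.05 and a dotted line at the median of all genes tested. The 7 called structural genes, DcSCPL1 and DcGST1 lie between 4.53 and 6.09, and the 5 called MYB and bHLH genes lie between -4.21 and -2.37.

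Of the 21 structural genes in the study's list, 7 were called, all positive, and the list's median interaction was 1.95, beside -0.24 over all genes tested. The 14 others included second copies with a different shape, named here after their values were seen. CHS2, a further chalcone synthase, had 0.13 and 0 FPKM in E, 15.3 and 31.8 in F, 0.15 and 0 in G, and 0 and 1.84 in H, and CHS9 had 0.24 and 1.17 in E, 15.7 and 33.8 in F, 0.96 and 0.67 in G, and 2.11 and 3.57 in H. Neither passed the test (interactions -3.79 and -2.82, adjusted p = 0.077 and 0.133). Reads shared by near-identical copies could have been split or dropped in counting, so small values of such copies are uncertain. In the other families 1 of 8 glutathione S-transferases was called positive, and 2 of 18 MYB and 3 of 20 bHLH genes were called negative. Of all genes tested, 0.174% were called positive and 1.27% negative. Among the 460 tested genes of all the study's lists 12.8% were called, 22 positive and 37 negative. Because the study chose these lists on the same libraries, the counts are not independent evidence of a direction.

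The 5 called MYB and bHLH genes were all more positive in G and H. LOC108215616, an MYB330-like gene, was listed at 0 FPKM in both E libraries (3 fragments would be 0.15 FPKM) and had 0.82 and 0.45 in F, 13.8 and 11.98 in G, and 1.65 and 0.32 in H (interaction -3.59 ± 0.58, adjusted p = 0.0388). LOC108225351 was named APL-like, after the Arabidopsis factor APL that is needed for phloem identity, and yet it was highest in the G xylem. It had 0 and 0.04 FPKM in E, 0.33 and 0.27 in F, 4.87 and 5.83 in G, and 0.21 and 0.28 in H (interaction -2.70). LOC108220953, bHLH93-like, had 32.8 and 40.8 FPKM in E, 17.2 and 21.3 in F, 104 and 101 in G, and 11.9 and 7.84 in H, so that xylem was above phloem in both cultivars, by 0.90 on the log2 scale in E and F and by 3.27 in G and H. LOC108216411, bHLH94-like, took the crossed pattern with 8.94 and 5.06 FPKM in E, 20.4 and 31.9 in F, 41.7 and 35.4 in G, and 8.40 and 9.04 in H (interaction -3.80). LOC108226669, bHLH115-like, was driven by H, with 0.88 and 2.92 FPKM there, against 8.50 to 42.8 in the other 6 libraries (interaction -4.21).

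The 138 genes high in G alone had median log2 levels of 0.67 in E and 1.34 in F, with 3.84 in G beside 0.70 in H. Their G minus H ran between 1.52 and 6.98, and E minus F was within 1 in 101 of them. In the other 37 genes E was below F in 34, the opposite direction to G and H. That direction also adds to the negative interaction by which these genes were called, so the count is not read as a separate result. The largest sizes belonged to genes for which the tables used here give no function. LOC108201747 had 2.68 and 6.87 FPKM in E, 26.0 and 7.58 in F, 262 and 221 in G, and 3.47 and 5.61 in H (interaction -6.97). LOC108209058 had 4.28 and 9.999 FPKM in E, 25.5 and 14.2 in F, 235 and 246 in G, and 4.08 and 6.78 in H (interaction -6.66). LOC108202907 had 2.30 and 1.93 FPKM in E, 22.3 and 22.1 in F, 463 and 319 in G, and 16.2 and 40.1 in H (interaction -6.76). CT was high in all 3, between 107 and 227 FPKM.

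The class included 3 genes matched to auxin transport and response. Of the 35 genes that the study listed under plant hormone signal transduction, 7 were called, all more positive in G and H (1.27% of all genes tested were called in that direction), and 2 were called with voom. This list too holds genes already found different between these groups. Of all 413 tested pathway genes of the study, 32 were called in that direction. The list's median was -0.56, and 21 of its 35 genes were negative. LOC108195333, matched to the auxin influx carrier LAX2 (AT2G21050), had 2.22 and 2.18 FPKM in E, 3.63 and 4.05 in F, 22.0 and 20.7 in G, and 0.47 and 0.29 in H, an interaction of -4.61 ± 0.48 (adjusted p = 0.0146). LOC108224263, matched to the auxin-conjugating enzyme GH3.6 (AT5G54510), had 2.12 and 3.68 FPKM in E, 6.26 and 1.99 in F, 19.9 and 22.3 in G, and 0.45 and 0.58 in H (interaction -4.15). LOC108227728, matched to the auxin response repressor IAA27 (AT4G29080), had 6.22 and 6.54 FPKM in G and at most 1.98 in the other 3 groups (interaction -3.26). In these genes H was the lowest or among the lowest groups.

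A further pair of auxin repressors was driven by low values in H. LOC108222038, matched to IAA17 (AT1G04250), had 40.4 and 64.2 FPKM in E, 14.9 and 11.1 in F, 165 and 155 in G, and 2.53 and 1.44 in H. Xylem was above phloem in both cultivars, by 1.90 on the log2 scale in E and F and by 5.77 in G and H, and the interaction was -3.87 ± 0.46 (adjusted p = 0.0203). LOC108197503, matched to IAA13 (AT2G33310), had 2.60 and 1.52 FPKM in E, 2.93 and 2.33 in F, 6.87 and 8.97 in G, and 0.25 and 0.10 in H (interaction -3.19). The class of 11 genes low in H alone also held LOC108214223, matched to a beta-glucosidase (AT5G20950), with 4.98 and 4.13 FPKM in H and 11.3 to 33.1 in the other 6 libraries (interaction -2.73).

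The rest of the hormone calls were a cyclin and a cytokinin response gene. LOC108225757, matched to the D-type cyclin CYCD3;2 (AT5G67260), which promotes entry into the cell cycle, had 0.95 and 0.45 FPKM in E, 1.34 and 1.44 in F, 14.9 and 19.4 in G, and 0.52 and 0.17 in H (interaction -4.25 ± 0.52, adjusted p = 0.0203). LOC108222091, matched to the cytokinin response regulator ARR17 (AT3G56380), had 4.47 and 4.76 FPKM in E, 7.18 and 6.20 in F, 19.0 and 28.5 in G, and 2.32 and 4.004 in H (interaction -3.03). LOC108194127, from outside that list and matched to the cell plate syntaxin KNOLLE (AT1G08560), had 2.43 and 1.86 FPKM in E, 10.3 and 7.55 in F, 21.3 and 20.5 in G, and 6.79 and 4.33 in H (interaction -3.42). In the last gene F was above H and H above E, so that the order of the groups was G, F, H and E.

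Genes for copying DNA had the same order. The study listed 9 of them, and their summed FPKM was 7.65 and 6.89 in E, 21.9 and 20.2 in F, 42.1 and 42.5 in G, and 15.0 and 14.6 in H, with CT at 52.7 and 47.1. The replicates of each group were close together and no groups overlapped. Like the other lists, this one holds genes the study had already found different between these groups, so the separation is not independent evidence. The list's median interaction was -2.15, with 8 of 9 genes negative, beside 66.4% of all genes tested. The test called 2 of the 9, beside 1.45% of all genes tested and 12.6% of the study's tested pathway genes, and voom called none. LOC108216116, matched to the replicative helicase subunit MCM5 (AT2G07690), had 0.22 and 0.08 FPKM in E, 0.67 and 1.25 in F, 3.54 and 3.45 in G, and 0.46 and 0.31 in H (interaction -2.46, adjusted p = 0.043). LOC108194489, matched to the single-strand binding subunit RPA2 (AT2G24490), had 0.63 and 0.55 FPKM in E, 2.30 and 2.59 in F, 7.83 and 5.21 in G, and 1.21 and 1.28 in H (interaction -2.83, adjusted p = 0.0465).

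Genes matched to enzymes of hormone synthesis were called in both directions. LOC108220601, matched to NCED3 (AT3G14440), which makes the first committed step towards abscisic acid, had 11.5 and 19.0 FPKM in E, 7.42 and 5.66 in F, 65.9 and 62.9 in G, and 2.91 and 2.42 in H (interaction -3.08). LOC108211967, matched to the gibberellin 20-oxidase AT4G25420, had 5.39 and 6.86 FPKM in G and at most 0.30 in the other 3 groups (interaction -2.53). LOC108209046, matched to the ethylene-forming enzyme ACO4 (AT1G05010), had 4.12 and 3.29 FPKM in E, 2.84 and 4.92 in F, 46.1 and 49.6 in G, and 1.95 and 0.60 in H (interaction -4.52). A second gene matched to the same Arabidopsis enzyme, LOC108223209, was highest in H instead, with 291 and 228 FPKM in E, 218 and 199 in F, 145 and 84.8 in G, and 599 and 436 in H (interaction 2.49), so the copies had interactions of opposite sign.

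Cell wall and lipid genes completed the named members of the class. LOC108199393 and LOC108224700, matched to the pectate lyases AT5G63180 and AT3G53190, which cut pectin, had 37.1 and 56.6 FPKM and 7.85 and 10.9 FPKM in G, against at most 2.42 and 0.82 FPKM in the other 3 groups (interactions -5.27 and -3.01). LOC108218638, matched to a phosphoethanolamine methyltransferase (AT3G18000) of phosphatidylcholine synthesis, had 45.6 and 44.3 FPKM in E, 53.7 and 31.2 in F, 394 and 608 in G, and 23.3 and 15.3 in H (interaction -4.49 ± 0.50). LOC108219696, matched to a secreted phospholipase A2 (AT2G06925), had 49.6 and 55.5 FPKM in G and 1.92 to 5.30 in the other 6 libraries (interaction -4.40). LOC108206954, matched to a class III peroxidase (AT2G34060), was listed at 0 FPKM in both E libraries (3 fragments would be 0.14 FPKM) and had 6.30 and 5.54 FPKM in G (interaction -3.16). LOC108195331 (AT5G55856) and LOC108209581 (AT3G20290), listed by the study under RNA transport and endocytosis, had interactions of -3.70 and -3.55.

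CT was nearer to G than to the mean of E, F and H in 112 of the 138 genes high in G alone (81.2%), and 68.7% of the 1843 tested genes whose G libraries were both above the other 6 did the same. LOC108195333 had 13.6 and 9.90 FPKM in CT, LOC108225757 had 10.3 and 11.4, and LOC108218638 had 264 and 295, all closer to G than to H. ARR17-matched LOC108222091 was an exception, with 1.50 and 2.66 FPKM in CT.

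In the crossed class of 53 genes, phloem was the higher tissue in E and F, while xylem was the higher one in G and H. E minus F ran between -4.33 and -0.77 and G minus H between 0.77 and 4.23, and in every one of the 53 genes all F and G libraries were above all E and H libraries. The same values made the call and the class. How often such a separation held among the 663 tested genes of this pattern was not computed, so it is not read as a trait of the called genes. LOC108200894, with the largest size of all called interactions, had 5.56 and 2.93 FPKM in E, 119 and 86.3 in F, 44.3 and 100 in G, and 2.22 and 11.0 in H (interaction -7.77 ± 0.94, adjusted p = 0.0203). LOC108224228 had 3.55 and 1.23 FPKM in E, 12.3 and 35.1 in F, 66.6 and 49.0 in G, and 1.09 and 3.57 in H (interaction -7.01). LOC108214057 was steadier, with 5.31 and 4.76 FPKM in E, 47.1 and 115 in F, 77.2 and 93.3 in G, and 7.91 and 8.09 in H (interaction -6.88 ± 0.57, adjusted p = 0.00782). The tables used here give no function for these 3 genes.

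Matched members of the crossed class included a tubulin, a small GTPase and an enzyme of sugar metabolism. LOC108214930, matched to the alpha-tubulin TUA6 (AT4G14960), had 5.46 and 6.51 FPKM in E, 38.2 and 19.5 in F, 44.9 and 36.7 in G, and 10.6 and 13.5 in H (interaction -3.71). LOC108194243, matched to the small GTPase AT4G28950, had low values throughout, with 2.98 and 4.18 FPKM in G, and an interaction of -2.89. LOC108215772, matched to the trehalose-6-phosphate phosphatase AT4G39770, had 5.22 and 7.51 FPKM in E, 17.0 and 18.8 in F, 18.9 and 21.1 in G, and 1.99 and 3.98 in H (interaction -3.82). CT lay nearer to the F and G level than to that of E and H in 41 of the 53 genes. The share among all tested genes of this pattern was not computed, so the count is not read as a trait of the called genes.

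By the largest gap, 50 genes were low in E alone, of which the stricter definition above kept 8. Their median log2 levels were 1.64 in E and 4.48 in F, with 5.16 in G beside 3.76 in H, and H was below G in 45 of them. The tissue difference was thus reversed in those 45. An H below G also adds to the negative interaction by which the genes were called. The share among all tested genes low in E alone was not computed, so the count is not read as a separate result. LOC108220388, matched to the lignin-related peroxidase AT5G66390, had 0.45 and 0.32 FPKM in E, 36.8 and 20.1 in F, 45.6 and 30.9 in G, and 14.0 and 15.3 in H, an interaction of -5.65 ± 0.53 (adjusted p = 0.0097). LOC108214501 was matched to the same Arabidopsis methyltransferase as LOC108210405 of the class low in G, but had 0.64 and 1.23 FPKM in E, 8.11 and 8.70 in F, 11.5 and 9.26 in G, and 4.14 and 3.87 in H (interaction -3.48).

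Terpene genes were called through E and F as well. LOC108211175, matched to the terpene synthase TPS10 (AT2G24210), had 1.12 and 0.32 FPKM in E, 43.2 and 28.2 in F, 37.6 and 35.4 in G, and 28.6 and 14.0 in H (interaction -5.26 ± 0.61, adjusted p = 0.0184). LOC108204680, matched to a short-chain dehydrogenase (AT2G24190), had 31.9 and 32.9 FPKM in E, 127 and 117 in F, 167 and 160 in G, and 108 and 60.4 in H (interaction -2.89). LOC108220105, matched to the cineole synthase AT3G25830, was driven by F instead, with 0.17 and 0.33 FPKM in E, 25.6 and 26.0 in F, 0 in both G libraries (3 fragments would be 0.09 FPKM), and 0.79 and 0.92 in H. Its interaction was -3.53, but -2.99 with a pseudocount of 0.1 (adjusted p = 0.161) and -0.85 with voom (adjusted p = 0.923), so that neither of these called LOC108220105. Of the 6 monoterpenoid genes in the study's list, LOC108211175, LOC108204680 and LOC108220105 were called, all negative, beside 1.27% of all genes tested in that direction, and 1 was called with voom. Among all 413 tested pathway genes of the study, 32 were called negative. LOC108192906, matched to the cytochrome P450 AT3G26300, had 0.34 and 0.98 FPKM in E and 5.20 to 24.3 in the other 6 libraries (interaction -4.27).

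Primary metabolism was represented in this class by LOC108209382, matched to the methionine gamma-lyase AT1G64660, with 4.59 and 5.09 FPKM in E, 105 and 57.9 in F, 88.1 and 43.7 in G, and 67.0 and 93.3 in H (interaction -3.42). LOC108210017, matched to the plastid beta-amylase BAM3 (AT4G17090), which breaks down starch, had 20.2 and 22.1 FPKM in E, 65.7 and 50.6 in F, 148 and 108 in G, and 88.3 and 65.1 in H (interaction -2.14). Of the 21 starch and sucrose genes in the study's list, 3 were called, all negative, beside 1.27% of all genes tested in that direction, and 1 with voom. Among all 413 tested pathway genes of the study, 32 were called negative. The list's median was -1.68, and 16 of its 21 genes were negative. The most negative values without a function in the tables included LOC108212913 and LOC108220610, at -6.47 and -6.31, which were not among the 6 largest and are named after their values were seen. CT was nearer to E than to the mean of F, G and H in 6 of the 50 genes, which also held for 22.4% of the 1034 tested genes whose E libraries were both below the other 6.

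The 7 genes high in H alone were the other positive calls with a common pattern. LOC108226125, matched to the monolignol glucosyltransferase UGT72E2 (AT5G66690), had 0.83 and 2.35 FPKM in E, 1.38 and 1.40 in F, 1.24 and 1.40 in G, and 19.2 and 25.9 in H (interaction 3.38 ± 0.60, adjusted p = 0.0485). LOC108210532, matched to an Hsp70 nucleotide exchange factor (AT3G09350), had 7.95 and 10.2 FPKM in E, 8.57 and 7.61 in F, 25.4 and 14.3 in G, and 104 and 112 in H (interaction 2.58). In both genes the E and F libraries overlapped and the H libraries stood above all others.

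Called genes were in places neighbours on the chromosome sequence of the files. There were 6 pairs of called genes with no other locus between them, and all 12 genes were negative, as were 256 of the 291 called genes. LOC108214057 of the crossed class stood next to LOC108212913 of the class low in E, both with sizes above 6. Which of them a shared read would be given to depends on the counting, and whether the reads carried strand is not given in the sources used here.

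Other tissues could be checked in part. The defining markers of xylem are not named in the tables used here, and of phloem there was only the APL-like gene above, which was highest in a xylem group. An outer-layer signal was summed over 3 genes of the study's cutin, suberin and wax list (matches AT5G41040, AT5G58860 and AT4G00360). It was 0.15 and 0.24 FPKM in E, 9.47 and 6.73 in F, 0.85 and 2.41 in G, and 3.86 and 11.0 in H. The sum over all 4 genes of that list was 0.15 and 0.29 FPKM in E and 9.47 and 6.73 in F. It was 5.32 and 11.6 in G and 12.7 and 13.3 in H. In both sums phloem was above xylem in both cultivars, with the lowest values in E. The added gene left the F sums as they were and raised those of both G and H. None of the 4 genes was called. The summed FPKM of 2 chlorophyll-binding proteins was 208 and 447 in E, 128 and 60.3 in F, 434 and 376 in G, and 437 and 448 in H. The part of outer layers or of green tissue in the calls was not tested.

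The libraries were of like size, with 15131946 to 16539153 fragments, but E replicate 2 and H replicate 2 had 15219 and 15434 loci at 1 FPKM or more, against 16909 to 17799 in the other 6. The replicates of E and of H also differed with gene length (Spearman's rho of the replicate difference with length, across genes, 0.436 in E and 0.449 in H), while the interaction itself had a rho of -0.02. Without both of those libraries 18 genes were called, 9 in each direction, and all 291 kept their sign. The number of calls rests on every library: without G replicate 1 or G replicate 2 no gene passed in limma (2089 and 1873 at an unadjusted p below 0.05), without F replicate 1 a single gene did, and without any other single library 23 to 64 did. In each of these fits all 291 genes kept their sign. The fits reuse the libraries that chose the genes, so a kept sign is not independent support. The share of positive calls was larger in some settings. With quantile normalization, 37 of 124 calls (29.8%) were positive, and with the length adjustment 72 of 287 (25.1%), against 35 of 291 above. With a library of E or H or with F replicate 2 left out, 35.9% to 52.2% of the 23 to 64 calls were positive. With voom on the recovered fragments 83 genes were called, among them 17 of the 25 low in G and 33 of the 138 high in G.

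**Figure D5:**
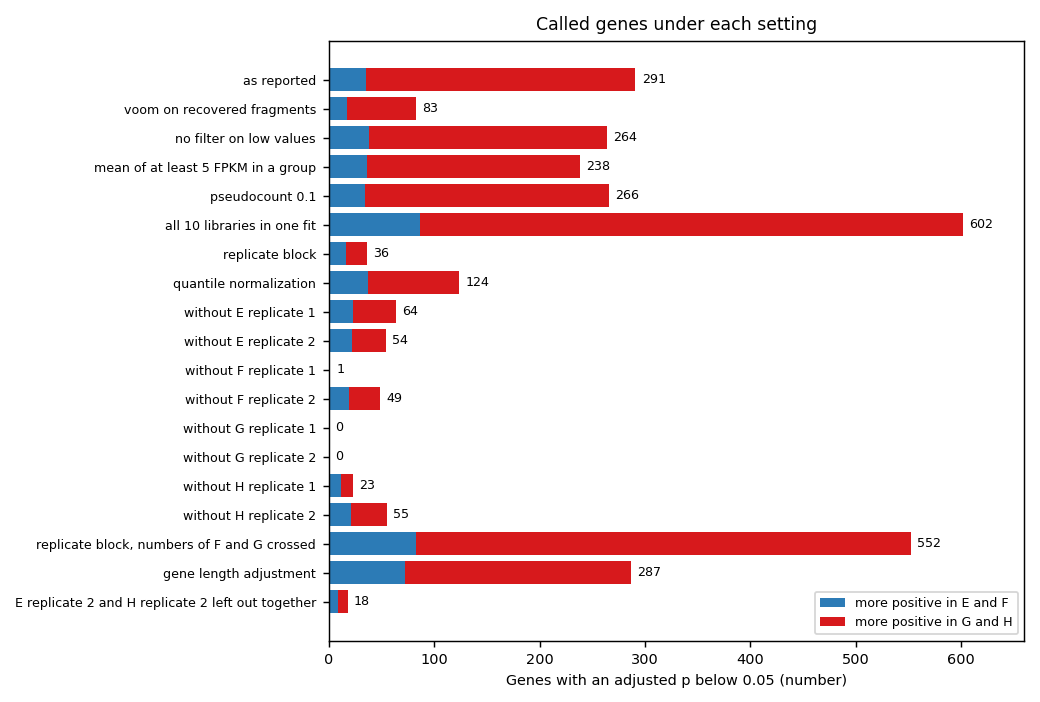
Bars give the number of genes with an adjusted p below 0.05 under each setting, split by direction, with the total beside each bar. The counts run between 0 without a G library and 602 with CT in the same fit, beside 291 as reported.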

How the data were processed

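RNA was taken from mixed taproots with 2 libraries per group, biological replicates per the study's methods, and p-values measure the spread between these pools. Per the labels and the study's methods, libraries were made with the NEBNext Ultra RNA kit, aligned with TopHat2 2.0.12 (on Bowtie2 2.2.3) and counted with HTSeq 0.6.1, the submitters' notes also name DESeq 1.18.0, and the authors deposited FPKM values for each library. The genome build is not given in the sources used here, so no coordinates are printed.

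Interactions were fitted with limma 3.58.1 (R 4.3.3; lmFit, eBayes with trend) on log2(FPKM + 1) over 4 group means, two-sided. Fold changes on that scale understate those of low genes. Genes needed a mean of 1 FPKM in a group. The FPKM steps were resolved into whole fragments for all 30180 detected loci, of which 22759 (75.4%) were whole with the listed length, and the recovered sums deviated from the scaling totals by at most 0.122%. Floors of 3 fragments cover counting error only. Tested on simulated data over these 20081 genes, the fit made no call without a change, recovered 126 of 200 genes with a 4-fold change in E at a dispersion of 0.05 (16 false calls), and none at 0.2. The simulated libraries were independent, with the same dispersion for every gene. Real replicate differences varied with gene length and correlated between groups, so the simulation does not measure the error rate of these libraries.

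Members and lists were chosen with earlier results of these data known. Named genes were the 6 largest in each direction, the 3 largest matched genes of each class, the called genes of the study's pigment and pathway lists, and 13 fixed pigment genes. Lists by RefSeq product name could not be used, because the RefSeq table (279 of 291 called genes matched) holds no product names. The names and Arabidopsis matches are the study's, with gene lists read against a pathway table whose lists stood 1 line above their pathway names. Lists of 2 broad terms (metabolic pathways, secondary metabolites) were held only in part and were not counted by themselves. Python 3.11.15, pandas 2.3.3 and matplotlib 3.10.9 were used. Alternatives are named in the closing section.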

Additional observations from a re-analysis of the deposited data

Results flagged for a closer look

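The xylem-minus-phloem difference of E and F differed from that of G and H in 291 genes by the limma interaction test, which is what marks these results. The named genes among them are given with their interaction on the log2 scale. Low in G alone were CHS1 (6.09), F3H1 (6.01), LOC108213096 (5.97), LOC108200979 (5.39), LOC108227809 (5.24), LOC108227883 (5.23), DcGST1 (5.21), LOC108225223 (5.04), CHI2 (5.02), CHI1 (5.003), DFR1 (4.84), LDOX1 (4.80), LOC108210405 (4.72), DcSCPL1 (4.70), F3'H1 (4.53), LOC108205905 (4.17), LOC108227431 (4.16), LOC108227207 (3.96), LOC108215217 (3.66), LOC108207577 (3.38) and LOC108216725 (2.49). High in H alone were LOC108226125 (3.38), LOC108210532 (2.58) and LOC108223209 (2.49).

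High in G alone were LOC108201747 (-6.97), LOC108202907 (-6.76), LOC108209058 (-6.66), LOC108199393 (-5.27), LOC108195333 (-4.61), LOC108209046 (-4.52), LOC108218638 (-4.49), LOC108219696 (-4.40), LOC108225757 (-4.25), LOC108224263 (-4.15), LOC108195331 (-3.70), LOC108215616 (-3.59), LOC108209581 (-3.55), LOC108194127 (-3.42), LOC108227728 (-3.26), LOC108206954 (-3.16), LOC108220601 (-3.08), LOC108222091 (-3.03), LOC108224700 (-3.01), LOC108194489 (-2.83), LOC108225351 (-2.70), LOC108211967 (-2.53), LOC108216116 (-2.46) and LOC108220953 (-2.37). In the crossed class, with F and G above E and H, were LOC108200894 (-7.77), LOC108224228 (-7.01), LOC108214057 (-6.88), LOC108215772 (-3.82), LOC108216411 (-3.80), LOC108214930 (-3.71) and LOC108194243 (-2.89). Low in E alone were LOC108220388 (-5.65), LOC108211175 (-5.26), LOC108192906 (-4.27), LOC108214501 (-3.48), LOC108209382 (-3.42), LOC108204680 (-2.89) and LOC108210017 (-2.14). Low in H alone were LOC108226669 (-4.21), LOC108222038 (-3.87), LOC108197503 (-3.19) and LOC108214223 (-2.73), and high in F alone was LOC108220105 (-3.53).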

How the results depend on the processing

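The count of 291 called genes was 83 with voom on recovered fragments, 124 with quantile normalization and 602 with CT in the same fit, and it stayed between 238 and 287 with no filter, a filter of 5 FPKM, a pseudocount of 0.1 and a length adjustment. The genes themselves changed more than this count. Of the 291, 170 were also called with no filter, 229 with the filter of 5 FPKM, 232 with the pseudocount of 0.1 and 222 with the length adjustment. All 291 had a size of at least 1. Leaving out single libraries gave 0 to 64 calls, and leaving out E replicate 2 and H replicate 2 together, chosen after seeing the data, gave 18. The cause of these lower counts was not tested. With a replicate block 36 genes were called, all among the 291, and 16 of them were positive. The sources do not say that same-numbered libraries share taproots, although both tissues were cut from the same cultivar's discs, and the numbers were not taken as pairs. Replicate differences, which varied with gene length in E and H, correlated at 0.595 between E and H but at -0.292 between E and F and -0.560 between G and H, and with the numbers of F and G crossed, also added later, 552 were called. The sign of every one of the 291 genes was the same under every alternative in which the gene was tested (249 with the filter of 5 FPKM). These alternatives use the libraries that chose the genes, so this is not independent support. The median interaction ran between -0.50 and 0.13.

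Under the other definition of a driving group, 203 called genes had no single one. High in G alone then held 52 of 138 genes, low in E alone 8 of 50, low in H alone 1 of 11, high in H alone 4 of 7 and high in F alone 1 of 3, while low in G alone held 20 of 25. Of the study's lists, the 7 structural genes and DcGST1 were also called with voom and with the block. The 2 MYB calls became 0 with both, the 3 bHLH calls became 1 with voom and 0 with the block, and the 52 pathway calls became 20 with voom and 13 with the block. With the block 2 phenylpropanoid genes, 1 monoterpenoid gene and no hormone, starch and sucrose or DNA replication gene were called. Of 1294 values of named genes under the alternatives, 640 lost their call and 5 gained one, for PAL4 and DcbHLH3, and 1 changed sign, DcMYB7 (LOC108213488), whose interaction ran between -0.930 and 0.079 without single libraries and was called in none. Depth limits the lowest genes, such as LOC108225351 with 1 fragment or none in an E library.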
